A study of Rattus norvegicus with 8 samples.

Results

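Cytochrome P450 enzymes of families 1 to 3 were followed by RNA-seq in the liver of Sprague-Dawley rats, which are outbred laboratory animals, kept on a normal chow diet (ND) or a high fat diet (HFD). The genes were taken from the deposited gene table by their symbols, as every row whose name begins with Cyp1, Cyp2 or Cyp3, a subfamily letter and a number, which gave 38 of 32545 rows and 36 symbols. Cyp2c13 and Cyp3a9 are each carried by 2 rows, told apart below by their Ensembl identifiers. Each library is the liver of 1 rat of wild type genotype, and 3 ND rats were compared with 5 HFD rats, drawn from 12 of each diet. Fat made up 8.5% of calories in the chow and 41% in the high fat diet, carbohydrate 59.6% and 43%, and protein 20.3% and 17%. The labels give the feeding time as 24 weeks but the age as about 22 weeks, and they do not give the sex of the rats.

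The enzymes of these families sit in the membrane of the endoplasmic reticulum, bind heme, and take electrons from NADPH-cytochrome P450 reductase to insert oxygen into drugs, environmental chemicals, steroids, retinoids and fatty acids. In rat liver the transcription of many of them is set by receptors that sense such compounds: the aryl hydrocarbon receptor for Cyp1a genes, the constitutive androstane receptor (CAR, gene Nr1i3) for Cyp2b genes and the pregnane X receptor (PXR, gene Nr1i2) for Cyp3a genes. Several members of the Cyp2c and Cyp3a subfamilies differ between male and female rats under the control of growth hormone.

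The results turned on the Cyp2b and Cyp3a genes, so the start regions of 5 of them are shown, to let near-identical members be compared by eye. Each window of 300 bases spans the annotated start, most of it upstream, is written 5′ to 3′ on the gene's own strand, comes from RefSeq on the assembly GRCr8, and was matched to the gene table by symbol. In the Cyp2b windows, capitals mark TTGCNNAA, a C/EBP-type motif. In the Cyp3a windows, capitals mark a direct repeat of AGTTCA with 3 bases between the copies, of the kind bound by PXR in rat Cyp3a genes, read here on the opposite strand.
Cyp2b1 (chr1:90645869-90646168, plus strand): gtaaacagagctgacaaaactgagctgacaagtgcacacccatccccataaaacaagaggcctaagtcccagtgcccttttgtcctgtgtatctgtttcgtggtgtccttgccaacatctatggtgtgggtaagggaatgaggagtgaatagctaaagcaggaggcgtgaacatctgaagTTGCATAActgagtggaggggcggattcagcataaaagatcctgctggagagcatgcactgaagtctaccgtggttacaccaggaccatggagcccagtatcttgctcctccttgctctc
Cyp2b2 (chr1:90722031-90722330, plus strand): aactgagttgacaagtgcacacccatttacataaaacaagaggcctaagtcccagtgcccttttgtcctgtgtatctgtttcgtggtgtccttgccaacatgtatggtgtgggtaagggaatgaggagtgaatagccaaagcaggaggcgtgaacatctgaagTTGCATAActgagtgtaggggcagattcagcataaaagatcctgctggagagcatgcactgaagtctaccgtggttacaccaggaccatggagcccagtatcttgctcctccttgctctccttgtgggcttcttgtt
Cyp2b3 (chr1:90780242-90780541, plus strand): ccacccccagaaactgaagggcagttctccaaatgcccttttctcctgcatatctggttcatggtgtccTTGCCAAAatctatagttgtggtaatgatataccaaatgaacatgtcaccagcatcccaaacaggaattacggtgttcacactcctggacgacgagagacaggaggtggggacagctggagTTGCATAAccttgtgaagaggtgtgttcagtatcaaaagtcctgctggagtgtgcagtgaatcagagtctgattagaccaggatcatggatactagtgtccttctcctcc
Cyp3a2 (chr12:14343808-14344107, minus strand): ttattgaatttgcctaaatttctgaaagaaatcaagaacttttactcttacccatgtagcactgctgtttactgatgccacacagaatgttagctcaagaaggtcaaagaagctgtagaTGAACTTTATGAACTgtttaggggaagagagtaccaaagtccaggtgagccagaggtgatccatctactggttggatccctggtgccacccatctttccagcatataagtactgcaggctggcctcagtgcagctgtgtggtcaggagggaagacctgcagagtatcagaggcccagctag
Cyp3a23-3a1 (chr12:14398754-14399053, minus strand): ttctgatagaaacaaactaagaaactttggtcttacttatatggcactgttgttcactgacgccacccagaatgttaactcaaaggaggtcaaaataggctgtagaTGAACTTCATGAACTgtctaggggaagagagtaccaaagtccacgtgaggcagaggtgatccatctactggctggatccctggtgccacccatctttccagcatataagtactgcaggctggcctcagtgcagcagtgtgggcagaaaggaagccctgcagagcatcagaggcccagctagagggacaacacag

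The Cyp2b1 and Cyp2b2 windows had 275 of 283 aligned bases in common (97.2%), while Cyp2b3 shared 72.9% of aligned bases with Cyp2b1 and 71.3% with Cyp2b2. The 2 Cyp3a windows shared 251 of 281 aligned bases (89.3%). Windows were found for 32 of the 36 symbols and searched on both strands. TTGCNNAA was present in the windows of 14 of those 32 symbols and in 10.6% of all 33469 rat windows. The PXR-type repeat, chosen after the sequences had been seen, was present in 2 windows of all 33469 (0.00598%), which were those of Cyp3a2 and Cyp3a23-3a1. TATAAA was present in 10 of the 32 and in 14.2% of all windows, and in none of the 5 shown. The Cyp3a2 window also held TTGCNNAA, outside the capitals. A match is a run of letters and not a measured binding site.

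By the total of gene counts, a deep set of 4 libraries (HFD-1 and HFD-2 with ND-1 and ND-3) held 30501673 to 36152937, and a shallow set of 4 (HFD-3 to HFD-5 with ND-2) held 12678616 to 18401981. ND-3 stood apart in clock genes, with the clock activator gene Arntl at 13.5 FPKM (fragments scaled by gene length and library size) against 0.384 to 1.57 FPKM in the other libraries. The tissue label was checked with 6 hepatocyte markers, whose summed level was 62099 to 67248 FPKM in ND and 67447 to 70367 FPKM in HFD libraries, so that the diets did not overlap. The 5 Kupffer cell markers summed to 139 to 184 FPKM in ND and 107 to 308 FPKM in HFD, and the kidney markers to at most 0.0809 FPKM, with Aqp2 at 0. The part of these differences in the results below was not tested. In RNA of whole liver, fewer cells of a type and less RNA per cell cannot be told apart.

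Of the 38 P450 rows, 15 had a mean over 100 FPKM, 12 between 1 and 100 FPKM and 11 under 1 FPKM. The highest means over all libraries belonged to Cyp3a2 and Cyp2c11, 2 steroid hydroxylases that predominate in male rats, and to the Cyp2c13 row ENSRNOG00000049464, of another male-type enzyme. At the other end, Cyp2ab1, Cyp2ac1, Cyp2g1 and Cyp2w1 had 0 counts in every library. Their floor of 3 counts corresponds to 0.0830 to 0.237 CPM (counts scaled to the library total), depending on the library, and covers counting error only. Cyp2b12, Cyp2b21 and Cyp2c7 had 1 to 5 counts over all libraries. Cyp1b1, which hydroxylates oestradiol outside the liver, was at 0.0391 ± 0.00463 FPKM in ND and 0.0550 ± 0.0322 FPKM in HFD (SD, n = 3 and n = 5). Cyp2s1, an enzyme of epithelia, was at 0.104 ± 0.0398 and 0.115 ± 0.0406 FPKM. The second Cyp2c13 row, ENSRNOG00000013241, was at 0.612, 0.119 and 0.198 FPKM in ND-1 to ND-3. In HFD-1 to HFD-5 it was at 0.181, 0.117, 0.113, 0.476 and 0.0546 FPKM.

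**Figure D1:**
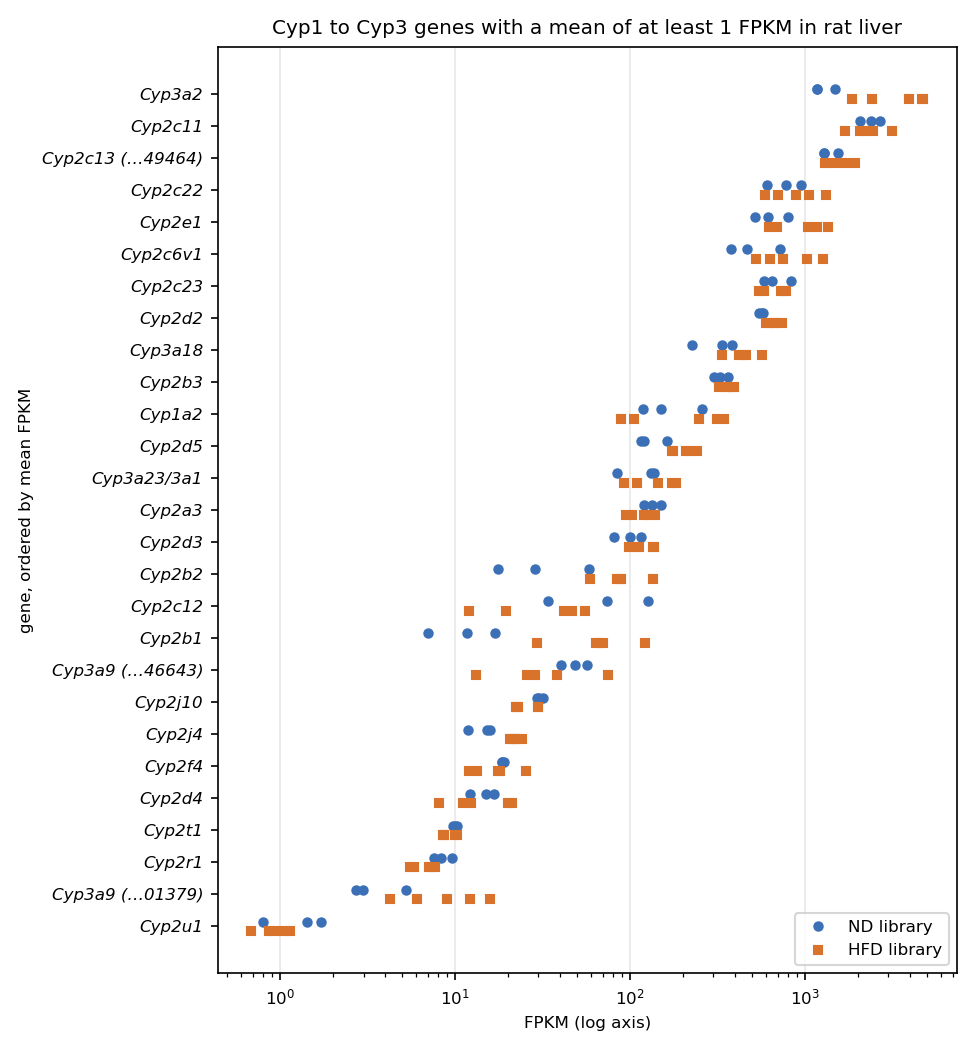
FPKM (log axis) of the 27 rows with a mean of at least 1 FPKM, ordered by mean, with blue circles for the 3 ND libraries and orange squares for the 5 HFD libraries. Cyp3a2 and Cyp2c11 stand at the top, and the orange squares of Cyp2b1, Cyp2b2, Cyp2j4, Cyp3a2, Cyp2d5 and Cyp2d2 lie to the right of every blue circle of the same row.

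The comparison between the diets asked which of these enzymes differ in the liver of rats fed fat. In order of their p, 5 members had every HFD library above every ND library on the log2 CPM scale, namely Cyp2b1, Cyp2j4, Cyp3a2, Cyp2b2 and Cyp2d5. These 5 were among the 28 members that passed the filter on low counts, and the same pattern was seen in 2.01% of all 14148 genes tested. No member had every HFD library below every ND library (1.89% of all genes). None of the 28 passed a Benjamini-Hochberg adjusted p of 0.05 in the quasi-likelihood test of edgeR, where 0% of all genes were called higher and 0.00707% lower, 1 gene in all. At an unadjusted edgeR p under 0.05 there were 7 members higher (2.88% of all genes) and 2 lower (2.83% of all genes). DESeq2, run as an alternative, called 4 of 31 members with an adjusted p, all higher on the high fat diet (Cyp2b1, Cyp2j4, Cyp3a2 and Cyp2b2), against 0.41% of all genes, and called 0 lower against 0.442%. Fitted values were higher in 16 of the 28 (51.2% of all genes) and lower in 12 (48.8%). The median log2 fold change of the 28 was 0.20, against 0.0059 over all genes tested. For the same 28 members it was 0.0819 without ND-2 and 0.0903 without HFD-5. Without ND-3, 8 members had every HFD library above every ND library (3.77% of all genes) and 1 the reverse (3.78%).

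**Figure D2:**
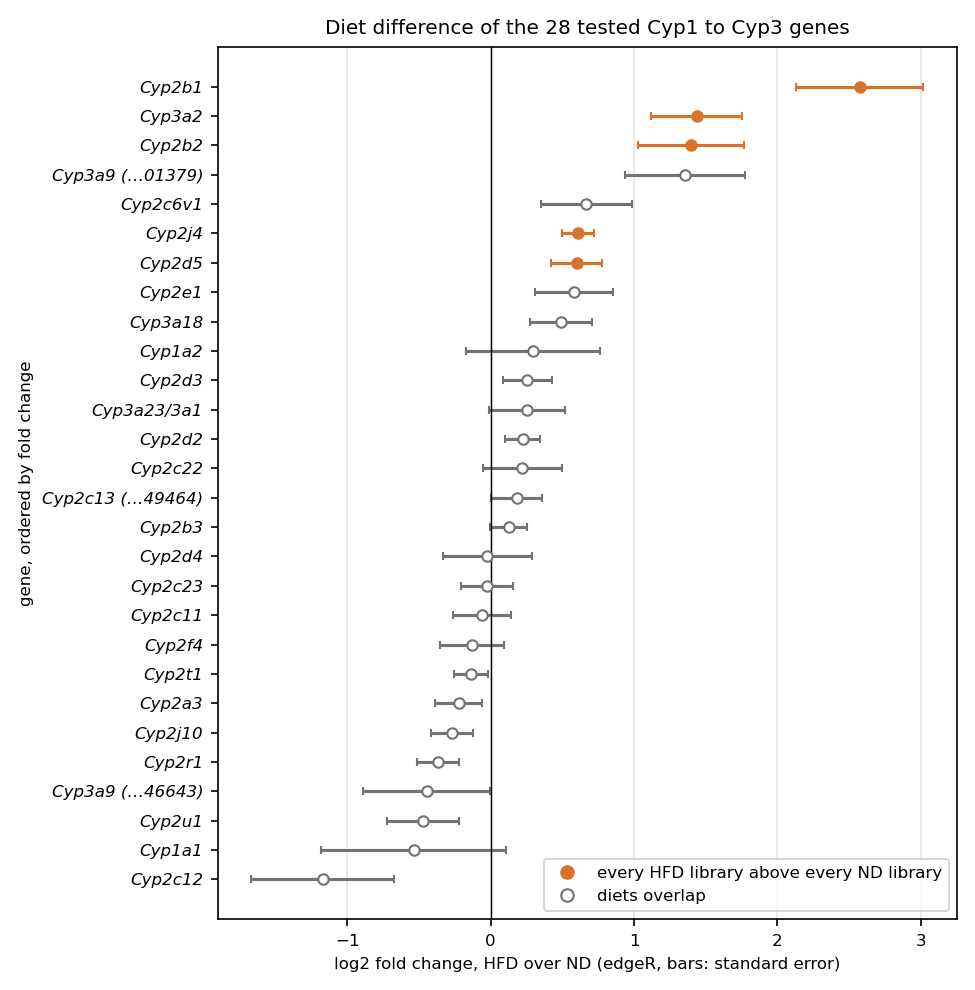
Log2 fold change of HFD over ND, with its standard error, for the 28 tested rows from the edgeR fit. Filled orange points mark the 5 rows in which every HFD library lay above every ND library on the log2 CPM scale. Cyp2b1 stands farthest to the right at 2.57, followed by Cyp3a2 at 1.44 and Cyp2b2 at 1.40, and Cyp2c12 farthest to the left at -1.17.

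Cyp2b1, a drug and steroid hydroxylase and the best known CAR target of rat liver, had the largest fitted difference of the 28 members. It was at 6.97, 16.8 and 11.7 FPKM in ND-1, ND-2 and ND-3, and at 66.7, 29.4, 121, 70.3 and 63.7 FPKM in HFD-1 to HFD-5. The lowest HFD library, HFD-2, lay above the highest ND library, ND-2. The mean was 11.8 ± 4.93 FPKM in ND and 70.2 ± 32.9 FPKM in HFD (SD, n = 3 and n = 5), a log2 fold change of 2.57 ± 0.45 (SE; adjusted p = 0.118 by edgeR and 6.07e-08 by DESeq2). Over 19 alternative fits the log2 fold change stayed between 2.29 and 2.87. Its mean log2 CPM difference was 2.23 within the deep libraries and 2.33 within the shallow ones, of which 1 is an ND library. The gene table places Cyp2b1 (ENSRNOG00000033680) on Rnor_6.0 chromosome 7, from 99142450 to 99181783, whereas its RefSeq window above lies on chromosome 1 beside Cyp2b2.

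Cyp2b2, the close relative of Cyp2b1 that shares its phenobarbital response (ENSRNOG00000020775, Rnor_6.0 chromosome 1, 83103925 to 83119193), had a smaller separation. It was at 17.5, 58.1 and 28.8 FPKM in the 3 ND libraries and at 89.5, 87.7, 135, 58.7 and 84.8 FPKM in the 5 HFD libraries. The diets met almost at 1 value: ND-2 and HFD-4 differed by less than 1 FPKM. The edgeR fit gave Cyp2b2 a log2 fold change of 1.40 ± 0.37 (SE; adjusted p = 0.419), and leaving out ND-2 gave 1.94 with an adjusted p of 0.277. DESeq2 gave an adjusted p of 0.0106. Within the depth sets the mean log2 CPM difference was 1.91 in the deep and 0.65 in the shallow libraries.

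Reads of the near-identical pair Cyp2b1 and Cyp2b2 may have been divided between them by the authors' counting, so their sum is also given. It was 59.2, 175 and 98.2 CPM in the ND libraries and 410, 277, 690, 361 and 390 CPM in the HFD libraries. All 5 HFD sums lay above the highest ND sum. Cyp2b1 made up 40.8%, 33.4% and 41.3% of the counts of the pair in ND, and 56.3%, 36.7%, 60.9%, 67.4% and 56.5% in HFD, where HFD-2 fell among the ND libraries. Cyp2b3, a constitutive liver member whose window differs from those of Cyp2b1 and Cyp2b2, was at 327, 302 and 362 FPKM in ND and at 393, 362, 321, 388 and 358 FPKM in HFD. The diets overlapped, and the log2 fold change of Cyp2b3 was 0.13 ± 0.13 (SE; edgeR adjusted p = 0.993).

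**Figure D3:**
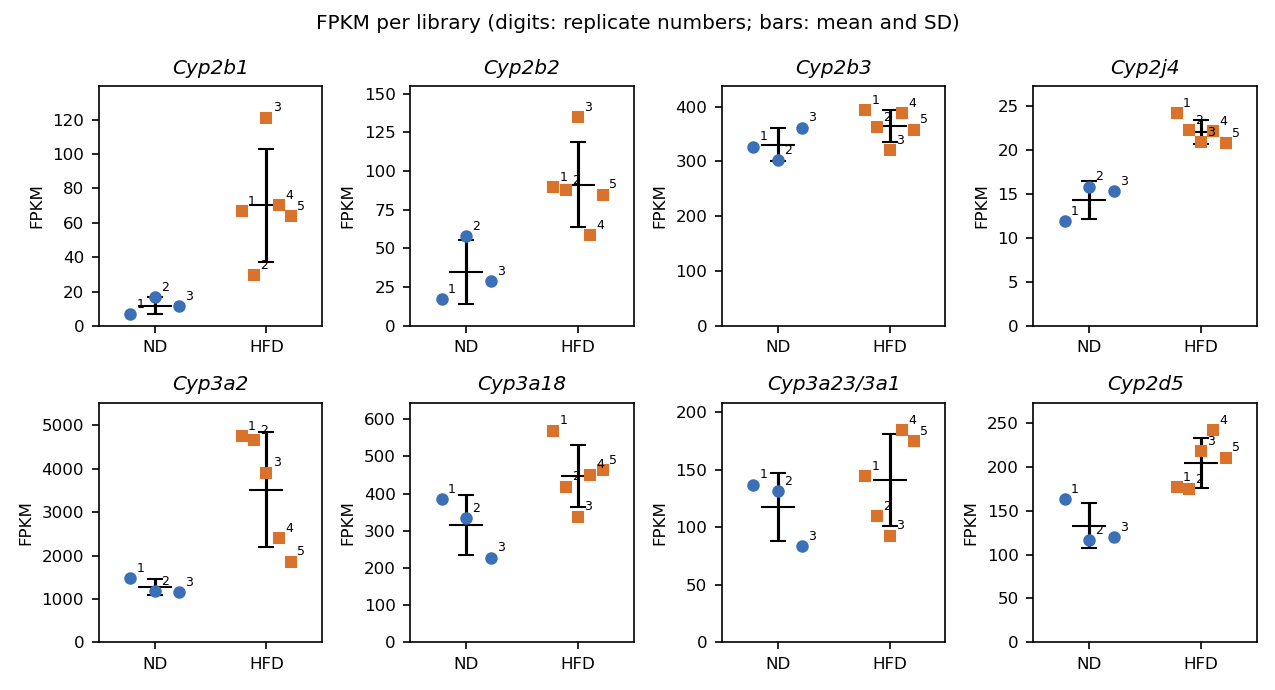
FPKM per library, with replicate numbers, for 8 members (blue circles ND, orange squares HFD; bars give the mean and SD, n = 3 and n = 5). Cyp2b1, Cyp2b2, Cyp2j4, Cyp3a2 and Cyp2d5 have every HFD library above every ND library, and Cyp2b3, Cyp3a18 and Cyp3a23/3a1 overlap.

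Cyp3a2, which hydroxylates testosterone and many drugs, had the largest difference in absolute level (ENSRNOG00000000978, Rnor_6.0 chromosome 12, 11663683 to 11677830). It was at 1488, 1174 and 1166 FPKM in ND-1, ND-2 and ND-3, and at 4757, 4657, 3912, 2409.7 and 1861 FPKM in HFD-1 to HFD-5. HFD-4 and HFD-5 were the lowest of their diet but still above ND-1. The means were 1276 ± 184 and 3519 ± 1319.6 FPKM (SD, n = 3 and n = 5), with a log2 fold change of 1.44 ± 0.32 (SE; adjusted p = 0.259 by edgeR and 0.000605 by DESeq2). Within the deep libraries the mean log2 CPM difference was 1.77, and within the shallow ones 1.20. Cyp3a2 made up 13.0% of the summed FPKM of all members in ND and 26.2% in HFD.

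The span of Cyp3a2 overlaps that of LOC100910877, a row described as 3A1-like, which was at 319 ± 56.2 FPKM in ND and 644 ± 164 FPKM in HFD. The rule that assigned reads between these rows was not given in the sources used here. Their summed counts were 2264, 1891 and 1683 CPM in ND and 6181, 6037, 4901, 3553 and 2739 CPM in HFD, again with no overlap. Cyp3a2 held 49.6% to 55.3% of the pair in ND and 54.2% to 63.8% in HFD.

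The other Cyp3a members did not separate by diet. Cyp3a23/3a1, the classic PXR target of rat liver, was at 137, 132 and 84.0 FPKM in ND and at 144, 109.8, 92.9, 184 and 175 FPKM in HFD. ND-3 was lowest and HFD-4 highest, and the diets overlapped; the log2 fold change was 0.25 ± 0.27 (SE; edgeR adjusted p = 0.993). The window matched to Cyp3a23/3a1 by symbol carries the PXR-type repeat, as does that of Cyp3a2. The gene table places this row on Rnor_6.0 chromosome 12, from 10716488 to 11082742, apart from Cyp3a2. RefSeq lists Cyp3a23-3a1 as the next gene after Cyp3a2. Whether the window belongs to this row or to LOC100910877, the 3A1-like row that overlaps Cyp3a2, was not tested. LOC100910877, which is not a member, was at 259 to 370 FPKM in ND and at 431 to 819 FPKM in HFD libraries. Every HFD library of that row lay above every ND library. Cyp3a18, another male-type steroid hydroxylase, was at 385, 334 and 228 FPKM in ND and at 569, 419, 338, 451 and 463 FPKM in HFD. HFD-3 lay among the ND libraries, and the log2 fold change was 0.49 ± 0.22 (SE; edgeR adjusted p = 0.871).

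Cyp3a9, a member that predominates in female rats, has 2 rows with unlike values. Row ENSRNOG00000001379 was at 2.72, 2.999 and 5.24 FPKM in ND and at 12.2, 15.9, 9.03, 6.10 and 4.25 FPKM in HFD, where HFD-5 fell below ND-3. Its log2 fold change was 1.35 ± 0.42 (SE; edgeR adjusted p = 0.587, DESeq2 adjusted p = 0.0685). Row ENSRNOG00000046643 was at 57.1, 48.6 and 40.5 FPKM in ND and at 75.1, 38.4, 25.7, 13.2 and 28.5 FPKM in HFD. Its HFD libraries held both the highest and the lowest value of all 8, and its log2 fold change was -0.45 ± 0.44 (SE; edgeR adjusted p = 0.993).

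Cyp2j4, an enzyme that oxidises arachidonic acid and retinal, had the tightest HFD group of the 27 rows with a mean of at least 1 FPKM, with a coefficient of variation of 6.24%. It was at 11.9, 15.8 and 15.3 FPKM in ND-1, ND-2 and ND-3 and at 24.2, 22.3, 20.9, 22.2 and 20.7 FPKM in HFD-1 to HFD-5. All 5 HFD libraries lay above all 3 ND libraries. The log2 fold change was 0.61 ± 0.11 (SE; adjusted p = 0.125 by edgeR and 0.000296 by DESeq2), and it was 0.72 within the deep and 0.48 within the shallow libraries as a mean log2 CPM difference. Its relative Cyp2j10 was at 30.5 ± 1.08 FPKM in ND and 25.5 ± 3.88 FPKM in HFD (SD, n = 3 and n = 5; log2 fold change -0.27 ± 0.15, SE; edgeR adjusted p = 0.960).

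Among the Cyp2d rows, a subfamily that hydroxylates debrisoquine-type drugs, Cyp2d5 separated by diet. It was at 163, 116 and 119.8 FPKM in ND and at 177, 175, 218, 242 and 210.2 FPKM in HFD. The gap was narrow, since ND-1 lay just under HFD-1 and HFD-2, and the log2 fold change was 0.60 ± 0.18 (SE; edgeR adjusted p = 0.517, DESeq2 adjusted p = 0.133). Within the deep libraries its mean log2 CPM difference was 0.27, and within the shallow ones 1.00. Cyp2d2 was at 565, 573 and 549 FPKM in ND and at 687, 618, 596, 743 and 672 FPKM in HFD, which did not overlap in FPKM but did in log2 CPM. On the FPKM scale 6 members had every HFD library above every ND library (2.25% of all genes) and 0 the reverse (1.65%). Cyp2d2 had a log2 fold change of 0.22 ± 0.12, Cyp2d3 of 0.26 ± 0.17 and Cyp2d4, a brain form, of -0.02 ± 0.31 (SE; edgeR adjusted p = 0.953, 0.993 and 1.000).

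Cyp2e1, which oxidises ethanol, acetone and acetaminophen, was at 612, 518 and 796 FPKM in ND and at 1037, 1174, 1362, 696 and 620.2 FPKM in HFD. HFD-1, HFD-2 and HFD-3 lay above every ND library, and HFD-4 and HFD-5 among them; the log2 fold change was 0.58 ± 0.27 (SE; edgeR adjusted p = 0.909). Cyp1a2, an aryl hydrocarbon receptor target that oxidises aromatic amines and caffeine, had the same 3 HFD libraries highest of its diet. It was at 151, 118 and 259 FPKM in ND and at 314, 249, 345, 105 and 89.3 FPKM in HFD, with HFD-4 and HFD-5 below every ND library. Its log2 fold change was 0.30 ± 0.46 (SE; edgeR adjusted p = 0.993). Cyp1a1, the inducible partner of Cyp1a2 and a readout of receptor activation, was low in both diets. It was at 0.650, 0.837 and 1.80 FPKM in ND and at 0.979, 1.84, 0.314, 0.239 and 0.330 FPKM in HFD. The diets overlapped, with a log2 fold change of -0.54 ± 0.65 (SE; edgeR adjusted p = 0.993) that was 0.05 without ND-3.

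The Cyp2c rows were the largest group by level, and none of them separated by diet. Cyp2c11, the main male-type steroid hydroxylase of rat liver, was at 2699, 2374 and 2063 FPKM in ND and at 3139.7, 2437, 1689.9, 2060.0 and 2216 FPKM in HFD. The HFD libraries held both extremes, and the log2 fold change was -0.06 ± 0.20 (SE; edgeR adjusted p = 0.993), with the opposite sign without ND-1, without HFD-3 and with the depth set as a covariate. The Cyp2c13 row ENSRNOG00000049464 was at 1279, 1282 and 1553 FPKM in ND and at 1709, 1355, 1300.0, 1532 and 1930.0 FPKM in HFD. These too overlapped, with a log2 fold change of 0.18 ± 0.18 (SE; edgeR adjusted p = 0.993). Cyp2c12, the female-type counterpart of Cyp2c11, was at 74.0, 127 and 34.0 FPKM in ND and at 55.2, 46.7, 19.5, 42.0 and 12.0 FPKM in HFD. ND-2 was highest and HFD-5 lowest, a ratio of 10.6, and ND-3 lay among the HFD libraries. The log2 fold change of Cyp2c12 was -1.17 ± 0.50 (SE; edgeR adjusted p = 0.850), and its mean log2 CPM difference was -0.04 within the deep libraries and -2.51 within the shallow ones.

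Of the remaining Cyp2c rows, Cyp2c6v1, a liver enzyme that phenobarbital also induces, was at 377, 469 and 722 FPKM in ND and at 1031, 746, 1269.5, 524 and 629 FPKM in HFD. HFD-1, HFD-2 and HFD-3 again lay above every ND library and HFD-4 and HFD-5 among them, with a log2 fold change of 0.67 ± 0.32 (SE; edgeR adjusted p = 0.918). Cyp2c22, a retinoic acid hydroxylase, was at 609.9, 784 and 955 FPKM in ND and at 1054, 704, 594, 895 and 1323 FPKM in HFD. Both extremes were HFD libraries. Cyp2c23, an arachidonic acid epoxygenase, was at 647, 583 and 828 FPKM in ND and at 785, 732, 587, 548 and 749 FPKM in HFD, with ND-3 the highest of the 8. The log2 fold changes were 0.22 ± 0.28 for Cyp2c22 and -0.03 ± 0.18 for Cyp2c23 (SE; edgeR adjusted p = 0.993 and 0.998); the sign of Cyp2c23 turned with the depth set as a covariate and without ND-3, HFD-3 or HFD-4. Cyp2c7, a female-predominant retinoic acid hydroxylase, had 1 count, while the row LOC100361547, described as Cyp2c7-like, was at 1415 ± 213 FPKM in ND and 1177 ± 388 FPKM in HFD.

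The remaining tested members had lower fitted values on the high fat diet, and none of them separated by diet. Cyp2r1, the vitamin D hydroxylase of liver, was at 8.29, 7.56 and 9.67 FPKM in ND and at 7.37, 7.64, 7.12, 5.52 and 5.82 FPKM in HFD. HFD-2 lay just above ND-2, the other 4 HFD libraries lay below every ND library, and the log2 fold change was -0.37 ± 0.15 (SE; edgeR adjusted p = 0.836). Cyp2u1, a long-chain fatty acid hydroxylase, was at 0.795, 1.71 and 1.42 FPKM in ND and at 1.14, 1.06, 0.927, 0.869 and 0.685 FPKM in HFD. ND-1 fell among the HFD libraries, and the log2 fold change was -0.47 ± 0.25 (SE; edgeR adjusted p = 0.946). Cyp2a3, a coumarin-oxidising enzyme known from the respiratory tract, Cyp2f4, a naphthalene-oxidising lung enzyme, and Cyp2t1 had log2 fold changes of -0.22 ± 0.16, -0.13 ± 0.22 and -0.13 ± 0.12 (SE; edgeR adjusted p = 0.993 for each). The Cyp2a3 row spans 113251 bases on chromosome 1, from 83653234 to 83766484, and RefSeq lists Cyp2a1 and Cyp2a2 as the next genes after Cyp2a3, which have no row of their own among the members. The span of Cyp2t1 overlaps Egln2, and reads of the 2 genes may not be separable.

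The spread between rats was wide for several members. The coefficient of variation of FPKM over the 27 rows with a mean of at least 1 FPKM had a median of 17.6% in ND and 23.3% in HFD, and it reached 60.1% in ND and 65.0% in HFD. Cyp2b2 was the most variable in ND and the Cyp3a9 row ENSRNOG00000046643 in HFD. The difference of mean log2 CPM had the same sign within the deep and within the shallow libraries in 22 of the 28 tested members. The same share over all genes was not computed, so this count has no background to be read against. The shallow difference rests on 1 ND library, ND-2.

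Summed over all 38 rows, the P450 genes took 1.88%, 1.80% and 1.98% of the gene counts in ND-1, ND-2 and ND-3, and 2.84%, 2.40%, 2.42%, 2.06% and 2.23% in HFD-1 to HFD-5. Every HFD share lay above every ND share, in a sum that includes Cyp3a2. The closest libraries were HFD-4 and ND-3, where Cyp3a2 took 30530 of 15857112 and 28415 of 30501673 gene counts. With the Cyp3a2 counts taken out, the share of HFD-4 fell below that of ND-3, so the diets overlapped in the remaining sum. The summed FPKM was 9806 ± 404 in ND and 13422 ± 2044 in HFD (SD, n = 3 and n = 5), and Cyp3a2 alone differed by 2243 FPKM between the diet means. By subfamily, the Cyp3a, Cyp2b and Cyp2d sums in CPM had diets that did not overlap. Their HFD over ND ratios of mean CPM were 1.98, 1.41 and 1.23. These CPM lack the TMM scaling that was used for the log2 CPM of single members. The Cyp2d gap was narrow, with ND-1 at 1675 CPM and HFD-2 at 1758 CPM. With TMM scaling ND-1 passed HFD-2, so the Cyp2d sums overlapped. The Cyp3a sum was 2579.9, 2194 and 1782 CPM in ND and 5629.9, 5069, 4215, 3571 and 3138 CPM in HFD. The Cyp2e, Cyp1a, Cyp2c and Cyp2a sums had ratios of 1.52, 1.25, 1.12 and 0.867, and their diets overlapped. The Cyp2c sum leaves out the Cyp2c7-like row LOC100361547, which had a lower mean in HFD. The Cyp3a sum leaves out the 3A1-like row LOC100910877, which had a higher mean in HFD. These sums were described and not tested.

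**Figure D4:**
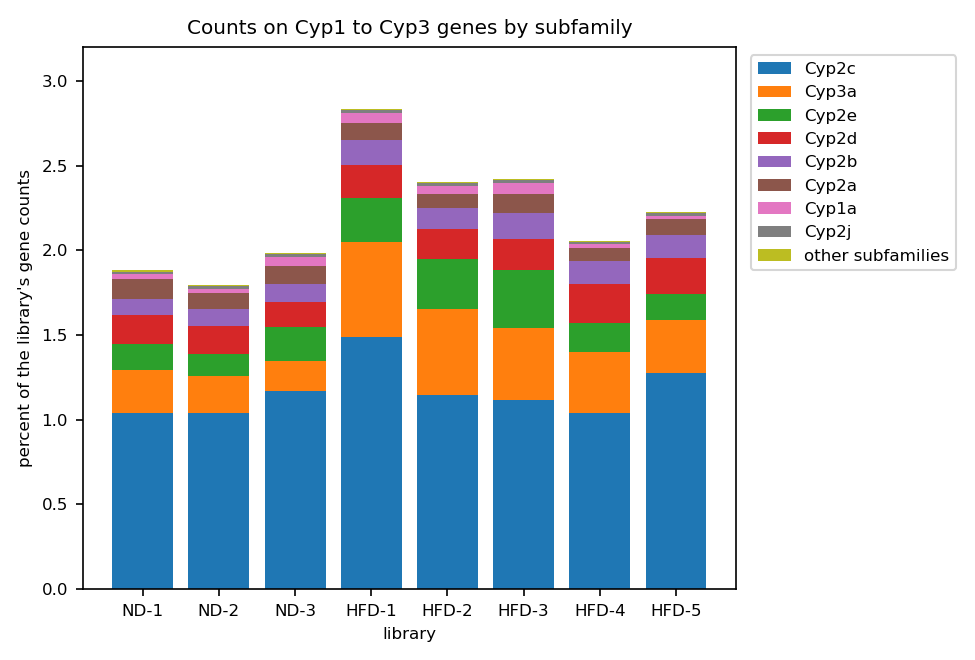
Percent of each library's gene counts on the Cyp1 to Cyp3 rows, stacked by subfamily, for the 3 ND and 5 HFD libraries. The totals are 1.80% to 1.98% in ND and 2.06% to 2.84% in HFD, the Cyp2c part is the largest in every library, and the Cyp3a part is larger in every HFD library than in any ND library.

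The receptors, electron donors and other genes that serve these enzymes were examined as a list of 37 genes, of which 36 were tested and Ahrr was too low. None passed an adjusted p of 0.05 by edgeR, and 5 were higher and 5 lower at an unadjusted p under 0.05, against 2.88% and 2.83% of all genes. DESeq2 called 1 higher (Nr1i3) and 1 lower (Cyb5r3), against 0.41% and 0.442% of all genes. Nr1i3, which encodes CAR, had the smallest p of the list. It was at 18.5, 13.9 and 21.1 FPKM in ND and at 58.9, 39.4, 41.1, 63.5 and 51.8 FPKM in HFD, so that the lowest HFD library was above the highest ND library. The log2 fold change of Nr1i3 was 1.49 ± 0.22 (SE; adjusted p = 0.0851 by edgeR and 6.84e-08 by DESeq2). Nr1i2, which encodes PXR, was at 100.6, 75.5 and 81.6 FPKM in ND and at 81.8, 91.3, 79.7, 121 and 113 FPKM in HFD. Ahr, which encodes the aryl hydrocarbon receptor, was at 23.0, 8.99 and 22.8 FPKM in ND and at 21.5, 17.7, 22.7, 29.6 and 28.1 FPKM in HFD. Both overlapped, with HFD-4 and HFD-5 above the other libraries, and had log2 fold changes of 0.16 ± 0.19 and 0.36 ± 0.32 (SE; edgeR adjusted p = 0.993 for both). The value of Ahr was 0.02 without ND-2. Ppara, the fatty acid sensor PPAR-alpha, was at 38.6, 22.9 and 16.7 FPKM in ND and at 43.3, 31.5, 44.5, 75.6 and 65.8 FPKM in HFD, where HFD-2 lay below ND-1 (log2 fold change 0.98 ± 0.35, SE; edgeR adjusted p = 0.749). Of the 10 receptors and other regulators tested, 9 had higher fitted values (51.2% of all genes).

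Among 6 electron donors and P450 partners, with Pgrmc1 and Pgrmc2 counted as partners, 3 had higher and 3 lower fitted values. Por, the reductase that serves every microsomal P450, was at 166, 132 and 94.9 FPKM in ND and at 155, 139.7, 149, 252 and 231 FPKM in HFD. HFD-4 and HFD-5 were highest and the other 3 HFD libraries lay among the ND libraries, with a log2 fold change of 0.49 (edgeR adjusted p = 0.962). Cyb5r3, which encodes cytochrome b5 reductase, was lower in every HFD library, at 88.0, 122 and 103 FPKM in ND and at 72.3, 71.6, 59.9, 76.8 and 65.7 FPKM in HFD. For Cyb5r3 the log2 fold change was -0.60 ± 0.12 (SE; adjusted p = 0.165 by edgeR and 0.00182 by DESeq2). Pgrmc1, a heme-binding P450 partner, was at 405, 348 and 420.2 FPKM in ND and at 678, 573, 553, 489 and 479 FPKM in HFD (log2 fold change 0.48 ± 0.15, SE; edgeR adjusted p = 0.596). No Pgrmc1 value of an HFD library fell within the ND range. Ephx1, the microsomal epoxide hydrolase gene, was at 365, 458 and 239.8 FPKM in ND and at 704, 369, 626, 789 and 675 FPKM in HFD, where HFD-2 lay among the ND libraries (log2 fold change 0.83 ± 0.27, SE; edgeR adjusted p = 0.636).

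Of 10 genes of heme synthesis and breakdown, 5 had higher and 5 lower fitted values. Alas1, the rate-limiting enzyme of heme synthesis in liver, was at 145, 125 and 117 FPKM in ND and at 257, 120.2, 152, 326 and 215 FPKM in HFD, where HFD-2 lay among the ND libraries. Its log2 fold change was 0.71 ± 0.30 (SE; edgeR adjusted p = 0.841). Of 8 genes of growth hormone signalling and sex-dependent regulation, 7 had lower fitted values (48.8% of all genes). Onecut1, a liver transcription factor gene that activates Cyp2c12 in rats, was at 6.14, 22.0 and 2.41 FPKM in ND and at 4.90, 4.79, 3.32, 1.43 and 1.40 FPKM in HFD. ND-2 was the highest for both Onecut1 and Cyp2c12. The log2 fold change of Onecut1 was -1.64 ± 0.64 (SE; edgeR adjusted p = 0.818) and -0.48 without ND-2, and that of Cyp2c12 was -0.69 without ND-2.

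**Figure D5:**
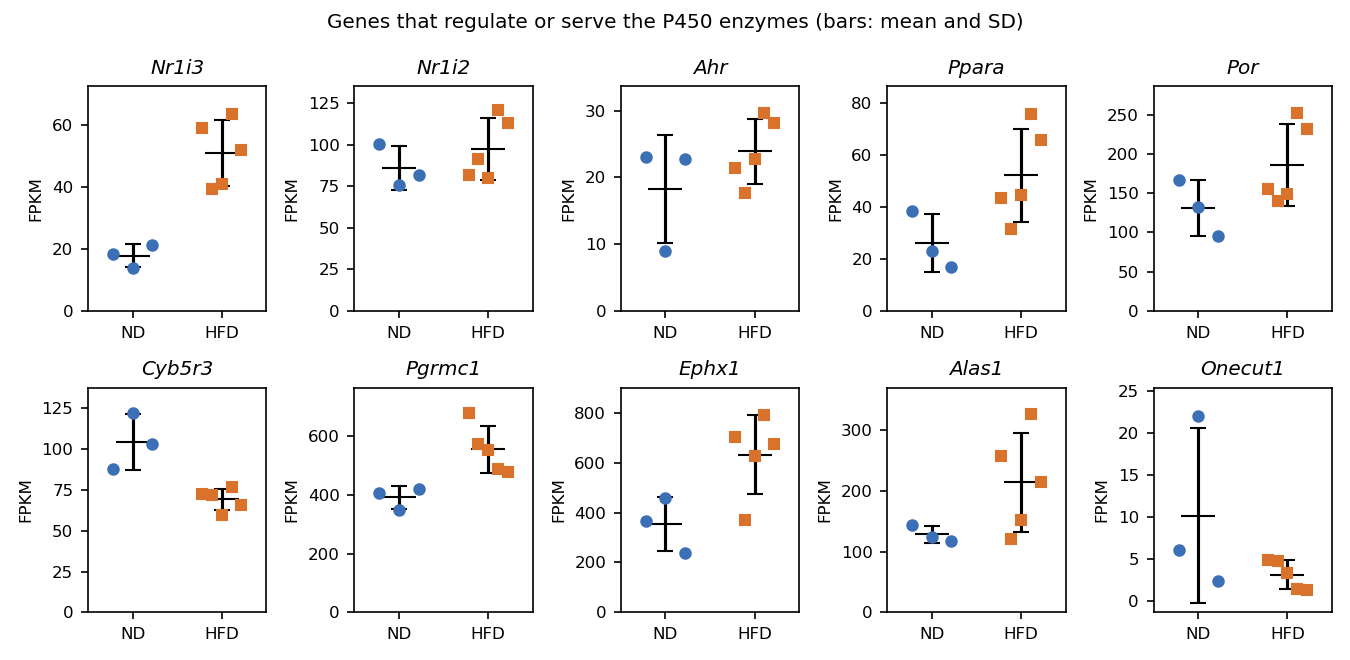
FPKM per library for 10 genes that regulate or serve the P450 enzymes (blue circles ND, orange squares HFD; bars give the mean and SD, n = 3 and n = 5, and the bar of Onecut1 in ND reaches below 0). Nr1i3 and Pgrmc1 are higher and Cyb5r3 lower in every HFD library than in every ND library, and the other 7 overlap.

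Long noncoding RNAs (lncRNAs) that overlap a P450 gene gave a further deposited readout at the same loci. The span of a member was overlapped by 36 deposited transcripts on either strand, of which 34 passed the filter on low values. None of them passed an adjusted p of 0.05 by limma on log2(FPKM + 0.5), against 0.00505% of all 19799 transcripts in each direction. At an unadjusted p under 0.05, 3 were higher (2.63% of all transcripts) and 2 lower (2.58%). NONRATT003075.2, which covers Cyp2r1, was at 78.4, 54.0 and 78.8 FPKM in ND and at 50.8, 58.6, 49.7, 38.6 and 38.4 FPKM in HFD, with HFD-2 above ND-2 as for Cyp2r1 itself. Its log2 difference was -0.57 ± 0.21 (SE; limma adjusted p = 0.838). NONRATT016877.2 in Cyp2u1 was at 2.80 to 5.25 FPKM in ND and at 0 in all HFD libraries except HFD-2, with a log2 difference of -2.50 ± 0.73 (SE; limma adjusted p = 0.680). NONRATT031415.1 and NONRATT000925.2, both across Cyp2c6v1, and NONRATT001715.2, across the Cyp2c13 row ENSRNOG00000013241, had log2 differences of 1.14 ± 0.44, 2.40 ± 0.96 and 1.36 ± 0.53 (SE; limma adjusted p = 0.876, 0.903 and 0.881). NONRATT031415.1 was at 77.0, 36.2 and 62.4 FPKM in ND and at 277, 127, 152, 82.6 and 64.5 FPKM in HFD, NONRATT000925.2 at 0, 0 and 8.52 and at 3.60, 3.75, 7.20, 6.13 and 17.5 FPKM, and NONRATT001715.2 at 5.17, 15.9 and 8.34 and at 14.8, 11.2, 51.1, 38.6 and 22.0 FPKM. The diets overlapped in all 3. Strand use in the counting was not given in the sources used here. Reads of a transcript and of the gene it overlaps cannot be told apart.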

How the data were processed

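RNA-seq libraries were made from rat liver with a TruSeq RNA kit, per the labels' protocols. TopHat2 2.0.9, Cufflinks 2.2.1, Cuffdiff and the build Rnor_6.0 are named in the submitters' processing notes. Which annotation and strand setting were used was not given in the sources used here. For each gene the authors deposited raw whole-number counts beside FPKM, and for each lncRNA transcript FPKM beside a fragment signal, which was not used. The deposited FPKM equal counts divided by gene length and by the total of the table, with implied lengths that differed by a relative 3.8e-05 at most. The 4 columns of diet means were not used.

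Counts were fitted over all 14148 genes kept by filterByExpr of 32545, with edgeR 4.0.16 (TMM, quasi-likelihood, 2-sided) in R 4.3.3, and p-values were adjusted by Benjamini-Hochberg over all genes. The standard error is the log2 fold change over the root of the F statistic. Levels are FPKM, and log2 CPM used a prior count of 2. lncRNAs that reached 0.5 FPKM in 3 or more libraries were tested on log2(FPKM + 0.5) in limma 3.58.1 with a trended variance, a scale that understates the change of low transcripts. DESeq2 1.42.0 was an alternative, beside other scalings, filters, limma fits on FPKM with 2 pseudocounts, the depth set as a covariate, a replicate block and leaving out each library. Windows of a subfamily were aligned with Biopython 1.88. The edgeR and limma steps were tested on simulated data.

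The members, gene lists and tests were chosen with earlier results of these data known. Values are given for every library for the 12 members with the smallest p, the 8 with the highest mean FPKM, members of known role (Cyp1a1, Cyp1a2, Cyp2b1, Cyp2b2, Cyp2b3, Cyp2e1, Cyp2c11, Cyp2c12, Cyp2c13, Cyp3a2 and Cyp3a23/3a1) and any member called by an alternative; for the 6 partner genes with the smallest p and Por, Nr1i2, Nr1i3, Ahr and Alas1; and for the 5 lncRNAs with the smallest p. Outside that rule, the Cyp3a9 row ENSRNOG00000046643 and the LOC rows were chosen after their values were seen. Each rat gave 1 library, so p-values measure the spread between these rats. The biological coefficient of variation was 26.0%, and chi-square over its degrees of freedom for 2 libraries of the same diet was at least 23.4, above sampling noise.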

Additional observations from a re-analysis of the deposited data

Results flagged for a closer look

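In 46 groups of 5 HFD values, those of the named members, partner genes, lncRNAs, subfamily sums and the summed share, 2 had 1 library farther from the rest than the 95% limit of Dixon's test allows; chance gives about 1 in 20. NONRATT016877.2, the transcript in Cyp2u1, was at 2.86 FPKM in HFD-2 and at 0 in the other 4 HFD libraries. With 4 values tied at 0, any single value above 0 passes that limit, so this flag carries no information. NONRATT000925.2, a transcript across Cyp2c6v1, was at 17.5 FPKM in HFD-5 and at 3.60 to 7.20 FPKM in the other 4.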

How the results depend on the processing

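The edgeR count of genes called over the whole table was 1. It was 18 with no filter beyond 1 count, 131 with DESeq2, 2 with limma-voom and sample weights, 0 with limma on log2(FPKM + 1) or log2(FPKM + 0.1), 5 with the depth set as a covariate and 0 to 9 without 1 library. The count of P450 members called was 0, and it was 1 with no filter (Cyp2b1, adjusted p = 0.0477), 4 with DESeq2 and 0 in each of the other fits, those without 1 library included. The count of members with every HFD library above every ND library was 5, and 5 to 8 without 1 library (2.62% to 5.43% of all genes); the reverse count was 0, and 0 to 1 without 1 library (2.66% to 5.08%). The median log2 fold change of the members tested was 0.20, and 0.0566 to 0.246 without 1 library. The ratio of the Cyp2j sums was 0.955 in CPM and 1.06 in FPKM; the other subfamily ratios kept their side of 1. Among the members followed by name, signs turned for 4, outside the replicate block given below. They turned for Cyp2c11 with the depth set as a covariate (0.00637, and -0.188 to 0.0718 without 1 library). Cyp2c23 turned with that covariate (0.0620, and -0.156 to 0.133 without 1 library). Cyp1a1 (-1.19 to 0.0470 without 1 library) and Cyp1a2 with sample weights (-0.0657) turned too. The signs of the other tested members were not followed singly. Without HFD-2, 17 of 28 members had higher fitted values, against 16 in the main fit. No cause of these changes was tested. Of the single-gene and single-transcript values under an alternative, 628 kept direction and side of the threshold, 8 newly passed it and 13 changed sign. With 3 rats against 5, a member's absence from the calls does not show that it did not differ.

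Deviations from the diet mean correlated between same-numbered libraries of the 2 diets with r = 0.112, -0.275 and 0.0735. With only 3 shared numbers, these values cannot show whether the replicate numbers pair the rats. With the replicate number as a block, edgeR called 0 genes and 0 members, and the median of the members was 0.0280. Among the genes followed by name, the signs turned with the block for Cyp2c22 (-0.0496), Cyp3a23/3a1 (-0.0462), Nr1i2 (-0.0519) and Cyp2c23 (0.00704). No overlapping lncRNA was called with the block. ND-1 alone correlated best with its own number.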
